A study of Mus musculus with 2 samples.

Results

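The genes described here are the chaperones and co-chaperones of the cytosol and the mitochondria, picked by gene symbol. They are the HSP70, HSP110, HSP90 and small heat shock protein families, the chaperonins of both compartments and the J-domain proteins (DNAJA, DNAJB and DNAJC). The BAG proteins and the HSP90 co-chaperones Stip1, Ahsa1 and Chordc1 complete the set. This set and the gene lists used below were chosen with earlier results of these data known. Genes of the endoplasmic reticulum lumen and pseudogenes were left out by name. The choice gave 82 of the 56791 genes in the count table. Some J proteins in it, among them Dnajc1, Dnajb12 and Dnajb14, sit in the membrane of the endoplasmic reticulum, so the set is slightly wider than cytosol and mitochondria. Libraries came from wild-type RAW264.7 cells, a mouse macrophage line of leukaemic origin, and IL-4 was present in both cultures, given as recombinant mouse protein at 20 ng, with no volume stated, over 24 h. The treated culture also received 10000000 particles of a preparation called FAPD10-exos, whose source the labels do not explain, and the vehicle culture did not. The study asked what this preparation does to the M2 state that IL-4 induces. There was 1 library per group, so no value below has a replicate check, no test was possible, and each difference describes these 2 libraries only.

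Chaperones bind unfolded proteins and let them fold or refold without clumping. HSP70 proteins do so in cycles of ATP hydrolysis that J proteins start and that HSP110 and BAG proteins end by exchanging the nucleotide, while HSP90 finishes the folding of kinases and receptors handed over from HSP70. Chaperonins are barrels that enclose a protein while it folds: TRiC, built of Tcp1 and the Cct subunits, folds actin and tubulin in the cytosol, and Hspd1 with its lid Hspe1 folds proteins imported into mitochondria. On heat or other protein damage the transcription factor HSF1 binds heat shock elements and switches many of these genes on. Some of its targets, such as Hspa8 and Hsp90ab1, are also made at high level in unstressed cells.

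The treated library held 37196241 counts and the vehicle library 36152743. Values in CPM are counts per 1000000 counts of the library size after TMM scaling, and 62 members with a mean of at least 1 CPM are called measured. Ratios are treated over vehicle, followed in parentheses by a 95% interval for counting error only. Most low counts were even numbers, as arises when both ends of a read pair are counted, so a second interval was taken from the counts divided by 2. A gene is called higher or lower when its ratio reached 1.5-fold and its interval excluded 1. Of 10 macrophage markers, 9 had at least 10 counts, while Mertk had 0 and 2, and 7 of 10 fibroblast and mesenchymal markers, Col1a1 and Dcn among them, had 0 in both libraries. The 20 members that were not measured had at most 36 counts in a library, and 6 of them had 0 in both. In bulk RNA, fewer cells of a type and less RNA per cell cannot be told apart.

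Among the 62 measured members 11 were higher, which is 17.7%, against 17.1% of all 12264 measured genes, so the share of higher genes was near that of the background. By contrast 4 members, 6.45%, were lower, against 19.8% of all measured genes. The same 17.1% and 19.8% are the background for the family counts below that carry no length correction. The 11 were Hspa1b, Hspe1, Hspa1a, Dnajc19, Dnajc15, Bag1, Hspa8, Dnajc17, Dnajc7, Cct3 and Cct2, and the 4 were Dnajc13, Dnajc27, Dnajc22 and Hspa4l. Without a threshold on size, 34 members had an interval wholly above 1 and 12 wholly below, where the shares over all measured genes were 37.3% and 36.6%. With counts halved these numbers were 32 and 10, against 32.5% and 32.2%. The ratio itself exceeded 1 in 42 members, against 50.8% of all measured genes. The median log2 ratio of the members was 0.19, beside 0.01 for all measured genes. Upper-quartile scaling gave 17 higher and 3 lower members, against 20.2% and 17.4% of all measured genes, and scaling by total counts gave 8 and 4, against 11.9% and 24.9%.

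**Figure D1:**
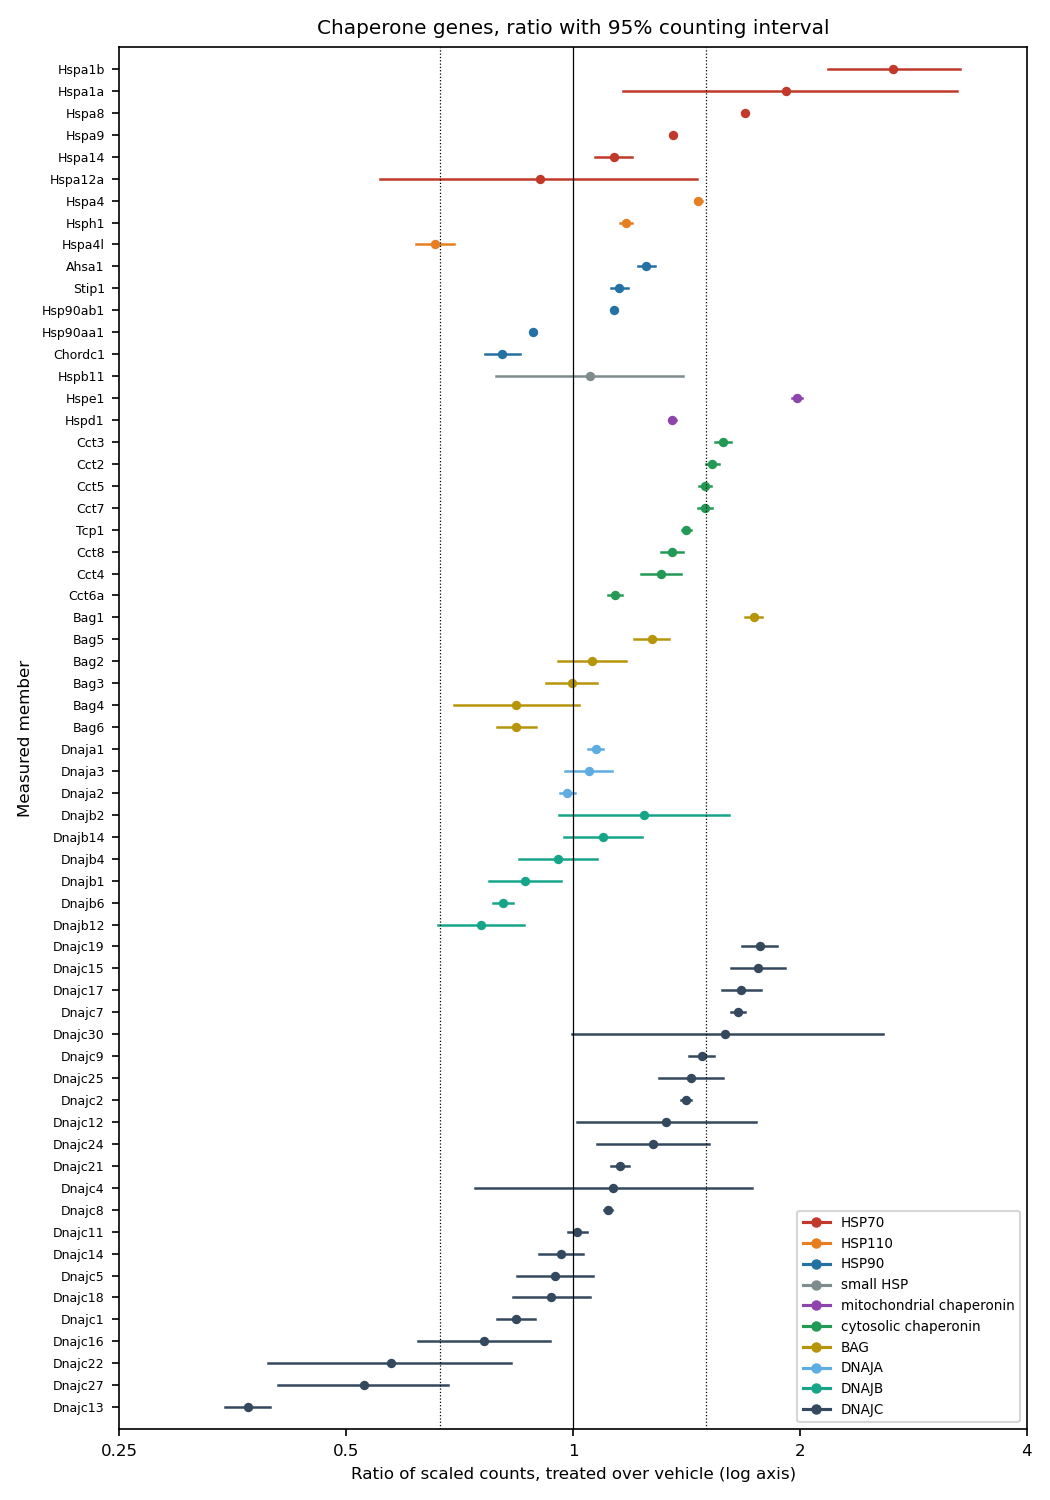
Ratio of scaled counts in the treated over the vehicle library (log axis) for the 62 measured members, with bars for the 95% counting interval, coloured by family; dotted lines mark 1.5-fold in either direction. The 8 TRiC subunits all lie to the right of 1, the HSP90 family runs from 0.805 to 1.25, and the DNAJC family runs from 0.370 for Dnajc13 to 1.77 for Dnajc19.

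The members took up 4.19% (treated) and 3.66% (vehicle) of all counts. Of the members' counts Hsp90ab1 alone held 30.2% (treated) and 33.3% (vehicle), and 5 genes, Hsp90ab1, Hspa8, Hsp90aa1, Hspa9 and Hspa4, held 65.1% and 66.9%. Per kilobase of transcript, Hsp90ab1 stood first and Hspa8 second in both libraries. Next came Hspe1 ahead of Hsp90aa1 in the treated library, and Hsp90aa1 ahead of Hspe1 in the vehicle library.

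The HSP70 family had 3 of 6 measured members higher and none lower, beside 17.1% and 19.8% of all measured genes. Its median log2 ratio was 0.60. That median was 0.31 under scaling by total counts and 0.40 by the median of ratios. These scalings moved every log2 ratio by only -0.13 and -0.043, but under both Hspa1a fell below 1 CPM and left the median. The HSP70 median was 0.44 for genes of at least 10 CPM, and 0.18 either without a filter or without the members that share sequence. All 3 higher members, Hspa8, Hspa1a and Hspa1b, are among those that share sequence. Hspa8, the constitutive HSP70 of the cytosol, had 5712 CPM (treated) and 3374 CPM (vehicle). Its ratio was 1.69 (1.68 to 1.71), and it was the most abundant member to be called higher. Of the 50-base stretches of its transcript, 74.8% also occur in transcripts of 13 other genes, so this value is uncertain. Hspa9, the HSP70 of the mitochondrial matrix, had 3302 and 2434 CPM, a ratio of 1.36 (1.34 to 1.37) that stayed under the threshold. Hspa14, which works with Dnajc2 on the ribosome, had 70.6 and 62.4 CPM, a ratio of 1.13 (1.07 to 1.198). Hspa12a, a distant relative, had 34 and 40 counts, and its interval of 0.554 to 1.46 included 1.

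Hspa1b, the heat-inducible HSP70, had 348 counts (treated) and 139 (vehicle), a ratio of 2.66 (2.18 to 3.26). Its copy Hspa1a had 47 and 26 counts, a ratio of 1.92 (1.17 to 3.23) whose interval with counts halved was 0.936 to 4.12 and included 1. In each library the inducible copies were scarce beside the constitutive gene: per kilobase of transcript Hspa1b stood at 3.49 CPM (treated) and 1.31 CPM (vehicle), where Hspa8 stood at 2386 and 1409 CPM. Of the 50-base stretches of the Hspa1b transcript, 62.3% also occur in Hspa1a, so reads of the copies cannot be divided with certainty. Summed, Hspa1a and Hspa1b had 395 and 165 counts, a ratio of 2.54 (2.11 to 3.07), or 1.96 to 3.33 with counts halved. Hspa1b lies on chromosome 17 from 35175412 to 35178214 and Hspa1a from 35188166 to 35191132, both on the minus strand, in the positions of the deposited table, for which the sources used here name no mouse build.

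The likeness of the copies extends to their promoters. The 150 bases before each start are shown, from RefSeq on GRCm38.p6, chr17:34972157-34972306 for Hspa1a and chr17:34959239-34959388 for Hspa1b, both on the minus strand, with the 1 base that differs in capitals; the remaining 149 are identical.
Hspa1a: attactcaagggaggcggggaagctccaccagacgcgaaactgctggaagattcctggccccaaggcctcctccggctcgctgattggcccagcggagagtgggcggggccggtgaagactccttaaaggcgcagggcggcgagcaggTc
Hspa1b: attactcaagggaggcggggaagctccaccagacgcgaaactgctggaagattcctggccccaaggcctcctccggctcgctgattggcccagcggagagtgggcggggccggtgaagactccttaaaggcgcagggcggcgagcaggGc

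In the HSP110 family, whose members exchange the nucleotide of HSP70, 0 of 3 genes were higher and 1 was lower. Hspa4 had 2451 CPM (treated) and 1672 CPM (vehicle), a ratio of 1.47 (1.45 to 1.48), just under the threshold. Hsph1 had 705 and 600 CPM, a ratio of 1.18 (1.15 to 1.197). Hspa4l had 51.4 and 78.3 CPM and was 1.52-fold lower (1.44 to 1.62). The close relatives Hspa4 and Hspa4l thus had ratios on opposite sides of 1 before correction for length: Hspa4l had 0.0210 counts per count of Hspa4 (treated) and 0.0468 (vehicle), a 2.23-fold difference (2.11 to 2.37) that library scaling does not enter. The Hspa4l transcript is the longer of these, at 9479 nt against 4618 nt, and long transcripts were lower throughout the data, as described further on. After correction for transcript length Hspa4l stood at 0.29 in log2 and Hspa4 at 0.91. Corrected for the exon length in the deposited table instead, Hspa4l stood at -0.057 and Hspa4 at 0.76.

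Of the HSP90 genes and their co-chaperones 0 of 5 were higher and 0 lower, and the ratios ran from 0.805 to 1.25. Hsp90ab1, the constitutive HSP90, had 13240.1 CPM (treated) and 11677 CPM (vehicle), a ratio of 1.13 (1.13 to 1.14). Hsp90aa1, its stress-inducible counterpart, had 3780 and 4270 CPM, a ratio of 0.885 (0.879 to 0.891). Both isoforms summed gave a ratio of 1.07. Within each library Hsp90aa1 had 0.285 counts per count of Hsp90ab1 (treated) and 0.366 (vehicle), a 1.28-fold lower share (1.27 to 1.29). The Hsp90aa1 transcript is the longer, at 3281 nt against 2520 nt. After correction for transcript length Hsp90aa1 stood at -0.069 in log2 and Hsp90ab1 at 0.083. With the exon length in the deposited table instead, they stood at -0.23 and 0.018. For Hsp90aa1, 58.5% of the 50-base stretches of its transcript also occur in transcripts of other genes, so its value is uncertain.

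Stip1, which bridges HSP70 and HSP90, had 360 and 313 CPM, a ratio of 1.15 (1.12 to 1.18). Ahsa1, the activator of the HSP90 ATPase, had 325 and 260 CPM, a ratio of 1.25 (1.22 to 1.29). Chordc1, a zinc-binding HSP90 partner, had 67.7 and 84.1 CPM, a ratio of 0.805 (0.763 to 0.849). After correction for transcript length the signs turned: Chordc1 stood at 0.18 in log2, Ahsa1 at -0.11 and Stip1 at -0.0089. Corrected for the exon length in the deposited table instead, Chordc1 stood at -0.017, Ahsa1 at 0.31 and Stip1 at -0.15, so Stip1 alone turned.

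**Figure D2:**
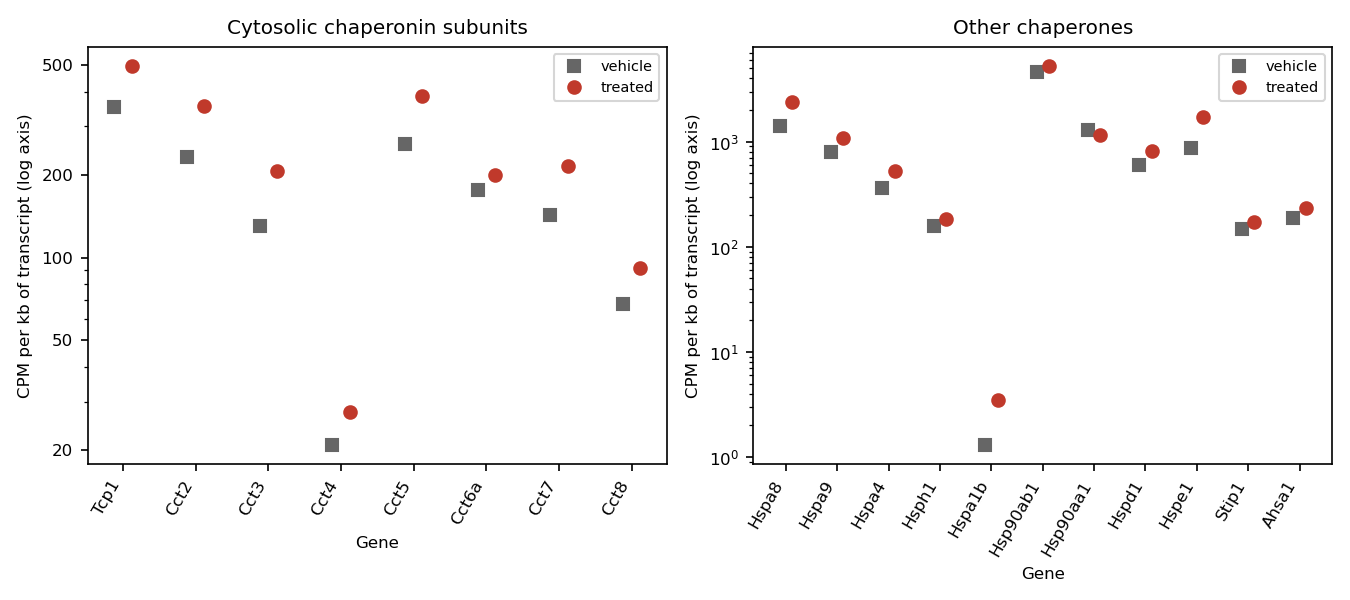
Level per kilobase of the principal transcript, in CPM on log axes, for the 8 TRiC subunits (left) and other abundant chaperones with the inducible Hspa1b (right); grey squares are the vehicle and red circles the treated library, 1 value each without error bars. Hsp90ab1 is highest and Hspa1b lowest on the right, Cct4 is the lowest TRiC subunit in both libraries, and Hsp90aa1 is the gene on the right whose treated value lies below its vehicle value.

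All 8 measured genes of TRiC had intervals above 1, also with counts halved, against 37.3% and 32.5% of all measured genes. Higher by the 1.5-fold rule were Cct3 and Cct2, 2 of the 8, beside 17.1% of all measured genes. After correction for transcript length 0 of 8 were called, against 10.1% higher and 12.1% lower of measured protein-coding genes. Under scaling by total counts 0 of 8 were called, against 11.9% and 24.9% of all measured genes. Scaling by the median of ratios left Cct2 uncalled. Corrected for the exon length in the deposited table instead, Cct3 and Cct7 were called higher, at 0.88 and 0.87 in log2. The share over all genes was not computed for that correction. Uncorrected, the ratios of the 8 ran from 1.14 to 1.58 with a median log2 ratio of 0.54. Cct3 had 408 CPM (treated) and 258 CPM (vehicle), a ratio of 1.58 (1.54 to 1.62). Cct2 had 696 and 455 CPM, a ratio of 1.53 (1.502 to 1.56). Cct5 and Cct7, at 1.498 (1.47 to 1.53) and 1.497 (1.46 to 1.53), lay just short of the threshold, so the split of the ring into higher and other subunits rests on small differences. Tcp1, the alpha subunit, had 1216 and 860 CPM, a ratio of 1.41 (1.39 to 1.44). Tcp1 is uncertain, since 22.2% of its 50-base stretches occur in other genes. Cct8 stood at 1.35 (1.31 to 1.40) and Cct4 at 1.31 (1.23 to 1.39). Cct6a had 489 and 430 CPM and the smallest ratio, 1.14 (1.11 to 1.16), with an interval that did not overlap those of the other 7.

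Every TRiC ring holds each subunit in equal number, yet the mRNA levels per kilobase of transcript were far apart in both libraries. In the treated library they ran from 27.4 CPM for Cct4 to 497 CPM for Tcp1, an 18.2-fold range, and in the vehicle library from 20.9 to 352 CPM, a 16.8-fold range. Tcp1, Cct5 and Cct2 led in that order in both, and Cct8 and Cct4 came last. The testis-type paralogs were near or at the detection limit, with 6 and 2 counts for Cct6b and 0 in both libraries for Cct8l1.

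The mitochondrial chaperonin showed a split within a complex. Hspe1, the lid, had 1326 CPM (treated) and 668 CPM (vehicle) and was 1.98-fold higher (1.95 to 2.01). Hspd1, the barrel, had 1974 and 1457 CPM, a ratio of 1.35 (1.34 to 1.37) under the threshold. Hspe1 had 0.672 counts per count of Hspd1 (treated) and 0.458 (vehicle), a 1.47-fold difference (1.44 to 1.49). By contrast the ratio of Hspa9 to Hspd1 was 1.67 in each library. The Hspe1 transcript is 774 nt long and that of Hspd1 2423 nt. After correction for transcript length they stood at 0.36 and 0.30 in log2, nearly level. Corrected for the exon length in the deposited table instead, Hspe1 stood at 0.63, still called higher, and Hspd1 at 0.13. Both share 44.8% of their 50-base stretches with transcripts of other genes, pseudogenes among them, so the values are uncertain.

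Hspd1 and Hspe1 are neighbours on chromosome 1 that are transcribed in opposite directions, Hspd1 from 55116994 to 55127402 on the minus strand and Hspe1 from 55127291 to 55130466 on the plus strand of the deposited table. Their ends overlap, and reads there cannot be told apart without strand. The promoters of the members, 250 bases before to 50 after each start in RefSeq (GRCm38.p6), were searched on both strands for 3 alternating heat shock units, GAANNTTCNNGAA or its reverse complement TTCNNGAANNTTC. A promoter was found for 68 members, matched by symbol, and 5 of them, 7.35%, had a match, against 0.662% of 27025 genes. Among these 68, the textbook HSF1 targets had a match in 4 of 15 and the other members in 1 of 53. The matches are shown in 30-base windows on the strand of the gene, with the matching bases in capitals, because HSF1 is known to bind such repeats.
Hspe1: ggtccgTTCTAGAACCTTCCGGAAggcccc
Hspd1: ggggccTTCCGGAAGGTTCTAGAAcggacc
Chordc1: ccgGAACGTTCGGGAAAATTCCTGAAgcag
Hsph1: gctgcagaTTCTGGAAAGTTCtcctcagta
Dnajb6: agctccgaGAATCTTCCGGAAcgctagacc

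The windows of Hspe1 and Hspd1 are the same bases, chr1:55088053-55088082, read on opposite strands, so 1 stretch serves as a match for both genes. The matching bases begin 89 bases before the start of Hspe1 and 144 bases before a start of Hspd1, and hold 2 overlapping matches. The others are chr9:18292260-18292289 for Chordc1 on the plus strand, with 3 overlapping matches that run across the start, chr5:149636279-149636308 for Hsph1 on the minus strand, just after a start, and chr5:29735844-29735873 for Dnajb6 on the plus strand. A match is a description of letters and not evidence of binding. Hspa1a and Hspa1b had no match, which says only that these letters are not in this window. The 5 genes with a match did not move together: Hspe1 was higher at 1.98, Hspd1 and Hsph1 stood at 1.35 and 1.18, and Chordc1 and Dnajb6 at 0.805 and 0.807. Their median log2 ratio was 0.23, beside 0.19 for the 44 measured members with a promoter and no match. The 14 members without an entry in the promoter table included Hspa8, Hspa9, Hsp90aa1, Hsp90ab1 and Cct4.

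Textbook HSF1 targets had ratios on both sides of 1, and the activity of HSF1 was not tested. The list of 18 includes genes that are also constitutive, such as Hspa8 and Hsp90ab1. Of these members 16 were measured, with 4 higher and 1 lower, against 17.1% and 19.8% of all measured genes. Their median log2 ratio was 0.19, beside 0.20 for the other 46 measured members. The higher ones were Hspa1b, Hspa1a, Hspa8 and Hspe1. Another 11 of the 16, Bag3 and Dnajb1 among them, lay between the thresholds. Bag3 had 35.1 CPM (treated) and 35.2 CPM (vehicle), a ratio of 0.997 (0.922 to 1.08). Dnajb1, the main J partner of inducible HSP70, had 16.7 and 19.4 CPM, a ratio of 0.863 (0.773 to 0.963). Its interval with counts halved, 0.738 to 1.01, included 1. Bag3 stood slightly above 1 under upper-quartile scaling. Hspb1 had 0 and 4 counts and Hspb8 had 2 and 0, all at or near the 3 counts that a 0 allows. Hsf1 itself had 238 and 198 counts, a ratio of 1.28 (1.05 to 1.55) with an interval of 0.970 to 1.68 for halved counts, and Hsf2 had 271 and 383 counts, a ratio of 0.751 (0.641 to 0.880).

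The small heat shock proteins, which hold unfolded proteins without ATP, were scarce in these macrophages. Only Hspb11, a ciliary transport subunit in spite of its name, was measured among the 8, with 101 and 102 counts and a ratio of 1.05 (0.791 to 1.40), below 1 under scaling by total counts. Hspb6 had 23 counts (treated) and 6 (vehicle), a ratio of 4.07 (1.61 to 12.2), Hspb7 had 14 and 10, Hspb9 had 4 and 3, and Hspb2 and Hspb3 had 0 in both. The 0 counts allow up to 0.0843 CPM (treated) and 0.0794 CPM (vehicle).

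BAG proteins, which couple HSP70 to release, degradation or survival, had 1 of 6 members higher and none lower. Over all measured genes the shares were 17.1% and 19.8%. The BAG median log2 ratio was 0.04, and it was below 0 under scaling by total counts or by the median of ratios. Bag1 had 463 CPM (treated) and 267 CPM (vehicle) and was 1.74-fold higher (1.69 to 1.78). Its transcript is short, 1068 nt, and it stood at 0.21 in log2 after correction for transcript length. Bag5 had a ratio of 1.27 (1.205 to 1.34) and Bag2 one of 1.06 (0.956 to 1.17), below 1 under scaling by total counts, while Bag4 stood at 0.841 (0.695 to 1.02) and Bag6, which guards membrane proteins on their way to the endoplasmic reticulum, at 0.841 (0.792 to 0.893). Relative to Bag3, Bag1 had 13.2 counts per count (treated) and 7.58 (vehicle).

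The J proteins of classes A and B, which deliver unfolded proteins to HSP70, had 0 of 9 measured members called in either direction. Dnaja1 had 412 and 385 CPM, a ratio of 1.07 (1.05 to 1.10) that was below 1 under scaling by total counts. Of its 50-base stretches 28.8% occur in other transcripts, so it is uncertain. Dnaja2 had 394 and 401 CPM, a ratio of 0.982 (0.960 to 1.01) that passed 1 under upper-quartile scaling. Dnaja3, the matrix J protein that partners Hspa9, stood at 1.05 (0.977 to 1.13), and below 1 under scaling by total counts. In class B the ratios ran from 0.755 for Dnajb12 to 1.24 for Dnajb2, with a median log2 ratio of -0.14. Dnajb6, which suppresses the aggregation of polyglutamine proteins, had 208 and 258 CPM, a ratio of 0.807 (0.783 to 0.832), and 41.9% of its 50-base stretches occur in other transcripts. Dnajb4 stood at 0.956 (0.849 to 1.08), and just above 1 under upper-quartile scaling. Dnajb14, with a transcript of 9477 nt, had a ratio of 1.10 (0.972 to 1.23) and stood at 1.03 in log2 after correction for transcript length. Dnajb3, Dnajb7 and Dnajb8 had 0 counts in both libraries.

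The DNAJC family, whose members place HSP70 at particular sites in the cell, spread widest: 4 of 22 measured genes were higher, 3 were lower and 15 lay between. Over all measured genes 17.1% were higher and 19.8% lower. Dnajc19, in the motor that pulls proteins into the mitochondrial matrix, had 102 CPM (treated) and 57.6 CPM (vehicle), a ratio of 1.77 (1.68 to 1.87). Dnajc15, a paralog in the same import machinery, had 42.3 and 24.1 CPM, a ratio of 1.76 (1.62 to 1.91). These relatives parted after correction for transcript length, at 0.17 in log2 for Dnajc19, whose transcript has 659 nt, and 1.38 for Dnajc15, with 6193 nt. Corrected for the exon length in the deposited table instead, both were called higher, Dnajc19 at 0.79 and Dnajc15 at 1.06. Dnajc17, linked to splicing, had 82.1 and 49.1 CPM, a ratio of 1.67 (1.58 to 1.77), and Dnajc7, a TPR protein that contacts both HSP70 and HSP90, had 603 and 364 CPM, a ratio of 1.66 (1.62 to 1.69). Dnajc19 and Dnajc17 are uncertain, with 32.0% and 25.4% of their 50-base stretches in other transcripts. Of these 4 genes, Dnajc15 and Dnajc7 were at least 1.5-fold higher after correction for transcript length too.

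At the other end, Dnajc13, an endosomal J protein involved in clathrin removal and receptor recycling, had 31.2 CPM (treated) and 84.3 CPM (vehicle). It was 2.70-fold lower (2.52 to 2.90), the lowest ratio of any measured member, and at -0.68 in log2 still at least 1.5-fold lower after correction for its 8012 nt transcript. Dnajc27, a Rab-like GTPase with a J domain, had 91 and 183 counts and was 1.89-fold lower (1.46 to 2.46). It stood at -0.55 after the correction, under the threshold. Dnajc22, a membrane J protein, had 47 and 87 counts and was 1.74-fold lower (1.21 to 2.54), and its transcript of 1564 nt is short, so that it stood at -1.15 after the correction.

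Among the DNAJC genes between the thresholds, Dnajc8, associated with the spliceosome, had 1306 and 1173 CPM, a ratio of 1.11 (1.10 to 1.13), but stood at -0.27 in log2 after correction for transcript length and at -0.13 after correction for the deposited exon length. Dnajc2, which with Hspa14 binds new chains at the ribosome, had 1206 and 854 CPM, a ratio of 1.41 (1.39 to 1.43), larger than that of its partner Hspa14. Dnajc9, a histone chaperone, had a ratio of 1.48 (1.43 to 1.54), just under the threshold, and Dnajc21, needed for the large ribosomal subunit, one of 1.15 (1.12 to 1.19). Dnajc11 of the mitochondrial membrane stood at 1.01 (0.984 to 1.04). Dnajc30 reached 1.59 from 48 and 32 counts, but its interval of 0.998 to 2.58 included 1. The other 9 ran from 0.762 for Dnajc16 to 1.43 for Dnajc25.

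A grouping of members by place in the cell, made after the values were seen, showed the following. Of 9 mitochondrial members 3 were higher and 0 lower, beside 17.1% and 19.8% of all measured genes, and their log2 ratios had a median of 0.44. Corrected for transcript length, 1 of 9, Dnajc15, was higher and 0 were lower, against 10.1% and 12.1% of measured protein-coding genes. The corrected median of the 9 was 0.29. With the exon length in the deposited table instead, Dnajc15, Dnajc19 and Hspe1 were called higher and the median was 0.40. The 6 J proteins of the endoplasmic reticulum membrane, Dnajc1, Dnajc14, Dnajc16, Dnajc18, Dnajb12 and Dnajb14, had a median of -0.17, and 0 of them were called in either direction. After the correction for transcript length their median was 0.20 and Dnajb14 was past the threshold.

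**Figure D3:**
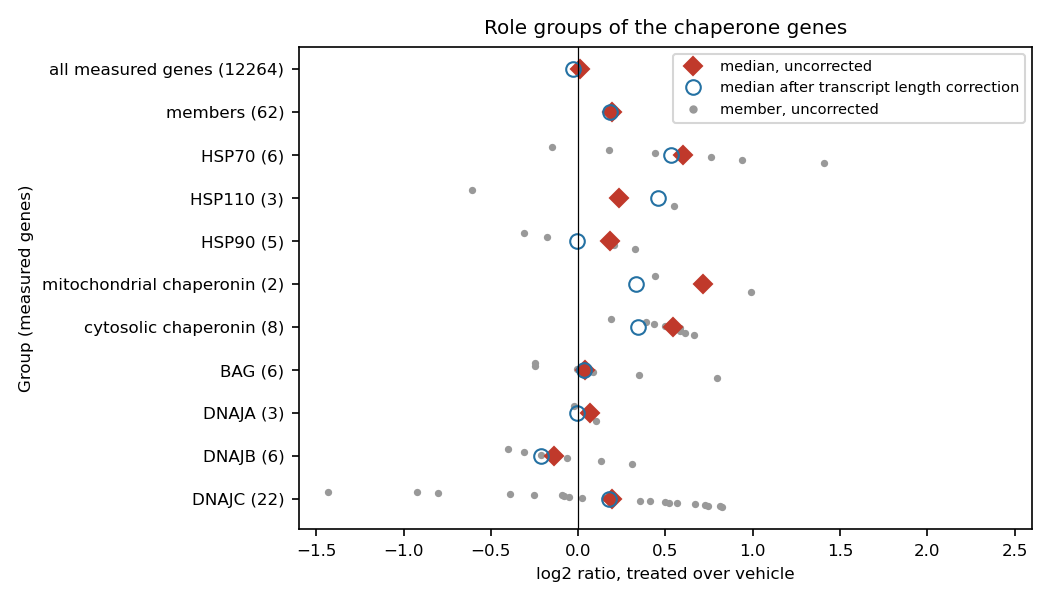
Log2 ratio of treated over vehicle for each measured member (grey points) by family, with the median before (red diamonds) and after (blue circles) correction for transcript length; the number of measured genes stands in parentheses, the top line gives the medians of all measured genes, and the small HSP family, with 1 measured gene, is not drawn on its own. The HSP70 median stays above 0.5 with the correction, the TRiC median goes from 0.54 to 0.35, and the HSP90 median from 0.18 to -0.01.

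Transcript length moved with the ratio in these libraries, and its part in the results was not tested beyond the correction given here. Over the 62 measured members Spearman's rho between principal transcript length and log2 ratio was -0.47, and over 9966 measured protein-coding genes it was -0.60. These are correlations across genes of the same 2 libraries, and genes are not independent replicates. The shortest 21 members, 608 to 2108 nt, stood at a median of 0.32 in log2, where all genes of that length range stood at 0.41. In the middle 21, 2133 to 3070 nt, the median was 0.41 against 0.07, and in the longest 20, 3151 to 9479 nt, it was -0.12 against -0.34. Of the longest 20 members 3 were lower, where 33.5% of genes in that length range were. By the median, short members thus lay below genes of their length, and middle and long members above.

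Subtracting the running median over transcript length left 8 members higher and 4 lower, against 10.1% and 12.1% of measured protein-coding genes. Of the 11 members higher before it, 5 remained so, Hspa1a, Hspa1b, Hspa8, Dnajc7 and Dnajc15, and Hspa4, Dnajb14 and Dnajc25 were added. Of the 4 lower, Dnajc13 and Dnajc22 remained, joined by Dnajb6 and Hspb11. The corrected value was above 0 in 41 of 62 members, against 49.9% of measured protein-coding genes, and the members' median was 0.18. The correction turned the sign of 19 members, 10 of them from above 0 to below and 9 the other way. These were Hspa14, Ahsa1, Stip1, Hspb11, Bag2, Dnaja3, Dnajc4, Dnajc8, Dnajc21 and Dnajc24, and Hspa12a, Hspa4l, Chordc1, Bag4, Dnajc1, Dnajc5, Dnajc14, Dnajc16 and Dnajc18. Of the 19, Hspa4l alone had been called. Corrected over the exon length in the deposited table instead, 11 members were higher and 3 lower, and the median was 0.26. Of the 19, Hspa14, Ahsa1, Dnaja3, Dnajc21, Hspa4l, Chordc1 and Dnajc16 kept their uncorrected sign under that correction. The share over all genes was not computed for this correction, so these counts have no background beside them. Which transcript of each gene the cells used was not measured.

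**Figure D4:**
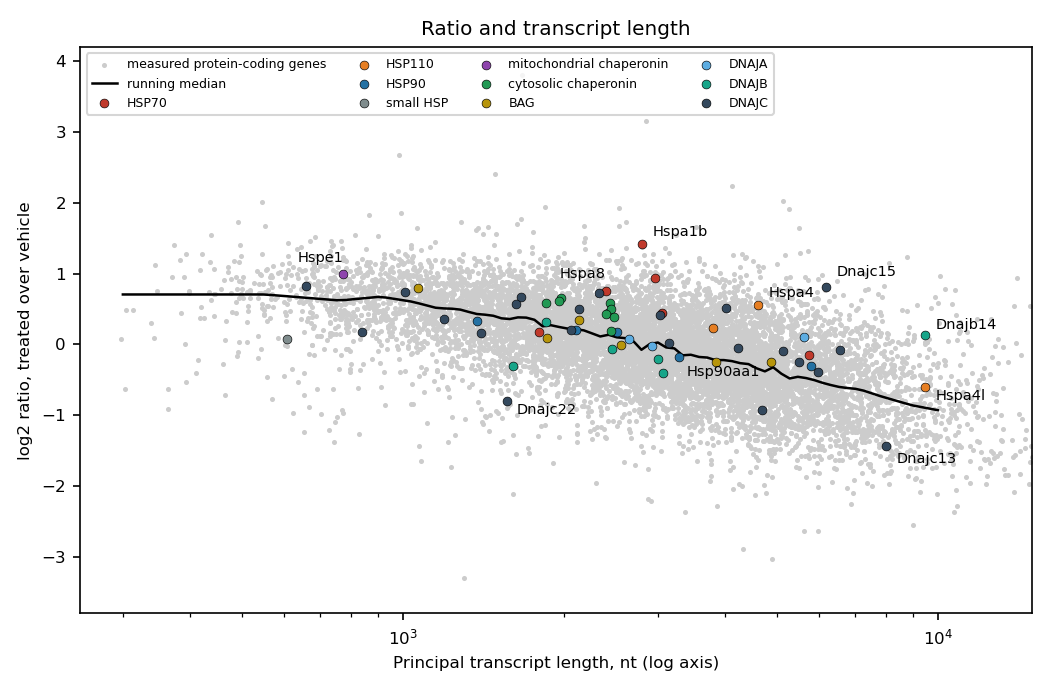
Log2 ratio of treated over vehicle against principal transcript length in nt (log axis) for the 62 measured members, coloured by family, over all measured protein-coding genes (grey) with their running median (black line); genes beyond the axes are not drawn. Hspa8, Hspa4, Dnajc15 and Hspa1b lie above the line, Hspe1 lies closer to it, and Dnajc13 and Dnajc22 lie below it.

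Partners of these chaperones outside the set were taken from 4 lists, chosen with earlier results of these data known. Of 59 measured genes 17 were higher and 2 lower, against 17.1% and 19.8% of all measured genes. Their median log2 ratio was 0.31. With the length correction 7 were higher and 1 lower, against 10.1% and 12.1% of measured protein-coding genes, and the median was 0.14. Among HSP70 and HSP90 partners 6 of 21 were higher and 1 lower. Cdc37, which brings kinases to HSP90, had 2515 CPM (treated) and 1583 CPM (vehicle), a ratio of 1.59 (1.57 to 1.61). Ppid, a prolyl isomerase of HSP90 complexes, had 435 and 252 CPM, a ratio of 1.73 (1.68 to 1.77). Sugt1, an HSP90 adaptor, stood at 1.73 (1.64 to 1.81) and Stub1, the ubiquitin ligase that marks chaperone clients, at 1.62 (1.57 to 1.69), with 54.0% of its exon length in other genes. These 4 were named for their large ratios, and the whole list of 21 had a median log2 ratio of 0.17. After correction for transcript length Cdc37 and Sugt1 were the 2 genes of the list called higher, and Ppid and Stub1 stood at 0.43 and 0.41 in log2. The transcripts taken for Cdc37 and Sugt1 were long, 7851 and 7392 nt. With these lengths the correction raised their log2 ratios from 0.67 and 0.79 to 1.40 and 1.46. Both corrected values depend on the transcript chosen, and which one the cells used was not measured.

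The list of prefoldin and tubulin folding genes includes prefoldin, which hands actin and tubulin to TRiC. Of its genes 6 of 17 were higher and 1 lower, against 17.1% and 19.8% of all measured genes. The log2 ratios had a median of 0.49 and the transcripts a median length of 1416 nt. Of all measured protein-coding genes from 608 to 2108 nt, 33.7% were higher. Corrected for transcript length, 0 of 17 were higher and 1 was lower, against 10.1% and 12.1% of measured protein-coding genes. The corrected median was 0.15. The prefoldin subunit Pfdn5 had 115 CPM (treated) and 56.4 CPM (vehicle), a ratio of 2.03 (1.93 to 2.14). Pfdn6 stood at 1.72 (1.62 to 1.84) and Pdcd5, a TRiC-binding protein, at 1.81 (1.70 to 1.93). Pdcl, a phosducin-like partner of TRiC, went the other way, from 81.7 CPM in the vehicle to 44.9 CPM in the treated library. It was 1.82-fold lower (1.71 to 1.93) and stood at -0.87 in log2 after the correction for transcript length. With the exon length in the deposited table instead, Pdcl stood at -0.95, Pfdn5 at 0.64 and Tbcel at 0.69.

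In the list of mitochondrial folding and proteolysis genes 4 of 13 were higher and 0 lower, beside 17.1% and 19.8% of all measured genes. After correction for transcript length Clpp stood at 0.32 and Hscb at 0.036 in log2 and were not called. Afg3l2 and Dnlz still were, with Clpb added. Thus 3 of 13 were higher and 0 lower, against 10.1% and 12.1% of measured protein-coding genes. With the exon length in the deposited table instead, Dnlz stood at 0.46, Afg3l2 at 1.13 and Clpb at 0.91. Clpp, the matrix protease, had 606 and 333 counts, a ratio of 1.93 (1.69 to 2.22), Afg3l2, an inner membrane protease, stood at 1.60 (1.54 to 1.66), Dnlz, which keeps Hspa9 soluble, at 1.57 (1.35 to 1.82) and Hscb, a J protein of iron-sulphur cluster assembly, at 1.59 (1.24 to 2.06). Among the genes of heat shock control 1 of 8 was higher and 0 lower, beside the same 17.1% and 19.8%. The higher gene was Hikeshi, the nuclear import carrier of HSP70, with 306 and 157 counts and a ratio of 2.07 (1.70 to 2.53). Vcp stood at 1.37 (1.33 to 1.41) and Hsbp1, a negative regulator of HSF1, at 1.33 (1.24 to 1.42).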

How the data were processed

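Per the file headers the authors deposited raw read counts per gene symbol in a table laid out as featureCounts output. The submitters' processing notes name featureCounts, STAR 2.5.3a and fastp 0.23.4. They also name GRCh38, a human build, although the gene symbols are those of mouse. The sources used here do not give the strand setting or the treatment of reads with several matches, so antisense or overlapping genes and near copies cannot be told apart. Members were taken by symbol, and the members and gene lists were chosen with earlier results of these data known. Columns were matched to libraries by the description in the labels.

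With 1 library per group there were no degrees of freedom for edgeR's quasi-likelihood test, so p-values are not given. TMM scaling (edgeR 4.0.16, R 4.3.3) gave factors of 0.957 (treated) and 1.05 (vehicle). Ratios carry exact Clopper-Pearson 95% intervals of the treated share of both counts, and ratios between 2 members carry Wald intervals on the log scale. All intervals cover counting error only, and among genes with 1 to 50 counts even numbers made up 76.3% (treated) and 75.1% (vehicle). A count of 0 had 0.5 added. For the length correction, the log2 ratio was lowered by its running median across 50 bins of the principal transcript length in GENCODE M21. Where several transcripts of a gene ranked alike, the longest was taken as the principal transcript. Shared sequence is the percentage of 50-base stretches of that transcript found in transcripts of other genes, and a member is uncertain when this, or the share of its exon length inside other genes, exceeds 20%. Named were all measured members outside the J proteins, J proteins past the threshold or among the 4 with most counts in their class, and up to 4 genes per partner list with the largest log2 ratio and at least 100 counts. Hsf1, other J proteins, the unmeasured members and all ratios between members were added after their values were seen. The procedure was tested on counts simulated with counting error only. Variation between cultures and the counting of both ends of a read pair were not simulated, so that test does not cover them. Alternatives were 3 scalings (median of ratios from DESeq2 1.42.0), 2 filters, halved counts, 2 thresholds, 1 CPM added, 2 length corrections and leaving out uncertain members. Scripts ran in Python 3.11.15 with scipy 1.17.1, pandas 2.3.3, matplotlib 3.10.9 and numpy 2.4.6.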

Additional observations from a re-analysis of the deposited data

How the results depend on the processing

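No paired analysis was possible because each group held 1 library, and no library could be left out. The count of 11 higher members was 17 under upper-quartile scaling, 5 without the 13 measured members that share sequence or overlap other genes, and 1 at a 2-fold threshold. The count of 4 lower members was 2 at a mean of at least 10 CPM, 1 at a 2-fold threshold and 1 when the whole interval had to lie beyond 1.5-fold. For these filters and thresholds, and without uncertain members, the share over all genes was not computed. Such counts therefore cannot be set against a background. The median log2 ratio of 0.19 was 0.057 under scaling by total counts, which moved every log2 ratio by -0.13. Under the other alternatives it lay between 0.14 and 0.26. Hspa4l, lower at -0.61 in log2, stood at 0.29 after correction for transcript length, which by construction raises long transcripts. Corrected for the exon length in the deposited table it stood at -0.057. The 5 higher members without shared sequence or overlap were Bag1, Cct2, Cct3, Dnajc15 and Dnajc7. Hspa1a was not called with counts halved. Low counts limit Hspa1a, Hspa12a, Dnajc4, Dnajc22 and Dnajc30. Of the other values recomputed, 471 stayed within the main value's counting interval (for medians, within 0.082 in log2) and 180 moved beyond it with no change of sign in a called gene. A gene's own ratio cannot change under the filters, the thresholds, halved counts or the omission of uncertain members. Many of the 471 were therefore fixed in advance, and their number does not measure how stable the ratios are.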
